A study of Mus musculus with 14 samples.

Results

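The chaperones and cochaperones described here are the 70 genes, of 19155 genes measured, whose symbols begin with the letters of the heat shock proteins (Hsp, Hspa to Hsph), of the J-domain proteins (Dnaja, Dnajb, Dnajc) or of the TRiC chaperonin (Cct2 to Cct8), with 6 genes of the endoplasmic reticulum (ER) left out (Hspa5, Hsp90b1, Dnajb9, Dnajb11, Dnajc3 and Dnajc10). They divide into 1 gene of the HSP90 class, 7 of HSP70, 3 of HSP110, 4 DNAJA, 9 DNAJB, 26 DNAJC, 8 small heat shock proteins, 9 of the TRiC class and 2 of the mitochondrial chaperonin. The remaining gene, Hspg2, was matched by its letters only and codes for perlecan, a protein of the extracellular matrix. The group is not wholly cytosolic: by textbook location 47 members act in the cytosol or nucleus, 10 in mitochondria, 12 at membranes, in the ER or on the secretory route, and 1 outside the cell. Members known best from heat shock are not all present, since Hspa8, the constitutive HSP70, and Dnajb6 lie on probe sets that carry several gene symbols, and Hsp90ab1 and Hspa1b have no probe set of their own in the table.

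Chaperones bind proteins that are not yet folded or have lost their fold. HSP70 binds short greasy stretches and releases them in a cycle driven by ATP, which J-domain proteins start and HSP110 proteins, acting as nucleotide exchange factors, complete. HSP90 takes over late folding steps of kinases and receptors, TRiC is a closed double ring for actin, tubulin and other cytosolic proteins, and small heat shock proteins hold unfolded proteins without ATP. After heat or other protein damage the factor Hsf1 binds heat shock elements, repeats of a short unit in inverted order, and drives Hspa1a, Hsph1, Hsp90aa1, Dnajb1 and Dnaja1. Blood-forming stem cells are known for a low rate of protein synthesis and for their sensitivity to misfolded protein.

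RNA came from multipotent progenitors (MPP) of the bone marrow of wild-type C57BL/6 mice. Old MPP4 (3 arrays) and old MPP3 (3 arrays) were from mice of 24 months, and young MPP4 (5 arrays) and young MPP3 (3 arrays) from mice of 8 to 10 weeks. MPP4 are the lymphoid-biased and MPP3 the myeloid-biased progenitors, and the sort parts them by Flk2, the receptor made by Flt3. Each array carried RNA of 20000 double-sorted cells, amplified by a linear kit and read on an Affymetrix Mouse Gene ST 1.0 array. The young arrays had also been part of an earlier series, so age and series cannot be told apart in the age comparisons. In such bulk samples fewer cells of a type and less RNA per cell cannot be told apart either.

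Values are the authors' normalized values: probe sets were ranked within an array, and the value is the negative natural log of the share ranked at or above the probe set. A value of 1 thus stands for the top 36.8% of probe sets, 2 for the top 13.5% and 3 for the top 4.98%. Differences below are differences in this normalized value and not folds, with the standard error (SE) and p of limma. P-values were adjusted by Benjamini-Hochberg across the 19155 genes, and a gene passed under 0.05. By their dimmest 33.3% of probe sets the arrays fell into 2 sets that the labels do not name. Set 2 holds 5 young arrays (MPP3 replicates 2 and 3, MPP4 replicates 3, 4 and 5), and set 1 the other 9 arrays, old arrays included. Female-specific Xist was above 1 on 4 young arrays and on no old array. Flt3 itself was 3.29 to 3.53 in old MPP4, 2.77 to 3.53 in young MPP4, 1.42 to 2.10 in old MPP3 and 2.02 to 2.20 in young MPP3. Other marker lists also moved between the groups: the mean value of the 4 myeloid progenitor genes was 1.71 to 1.76 in old MPP4, 1.37 to 1.69 in young MPP4, 2.52 to 4.06 in old MPP3 and 2.13 to 2.92 in young MPP3, and that of the 5 neutrophil genes was 0.493 to 0.752, 0.435 to 0.712, 1.34 to 2.02 and 0.823 to 1.28 in the same order of groups. All 8 mitosis genes measured had a higher mean in old than in young arrays of both populations, none past the threshold. The part of these lists in the chaperone values was not tested.

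Of the 70 members, 24 had a mean above 2 over all arrays and 24 a mean below 1. Above 2 were, among others, Hsp90aa1, both genes of the mitochondrial chaperonin, the mitochondrial HSP70 Hspa9, the HSP110 gene Hspa4, Dnaja1, the J-domain genes Dnajc8 and Dnajc9 and the ring subunits Cct2, Cct5 and Cct8. The 8 small heat shock proteins had means of 0.374 (Hspb1) to 1.20 (Hspb11). The SD within groups, pooled over the 4 groups, had a median of 0.113 over the members and ran between 0.0154 for Cct6b and 0.362 for Hspb11. The span between the highest and the lowest of the 4 group means had a median of 0.124 and was smaller than the gene's own pooled SD for 25 of the 70 members. The largest spans were those of Dnajc13 (0.571), Hspb11 (0.535), Dnajb4 (0.482) and Cct3 (0.445).

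The class means lay close together in the 4 groups. The mean over the 26 DNAJC genes was 1.57 ± 0.0361 in old MPP4 (SD, n = 3), 1.54 ± 0.0448 in young MPP4 (n = 5), 1.58 ± 0.0142 in old MPP3 (n = 3) and 1.55 ± 0.00308 in young MPP3 (n = 3). For the 7 HSP70 genes the class mean was 1.42 ± 0.109 in old MPP4, 1.36 ± 0.0249 in young MPP4, 1.46 ± 0.0537 in old MPP3 and 1.35 ± 0.0204 in young MPP3. The 9 TRiC genes averaged 2.25 ± 0.0664 in old MPP4, 2.20 ± 0.0366 in young MPP4, 2.19 ± 0.0255 in old MPP3 and 2.16 ± 0.0458 in young MPP3. The HSP70 class means did not overlap between old MPP3 (1.41 to 1.51) and young MPP3 (1.33 to 1.37). This class holds Hspa1a, whose values turned on single arrays as given below. Hspa1a itself overlapped between old MPP3 (0.924 to 1.78) and young MPP3 (1.06 to 1.18). The part of Hspa1a in the class means was not tested. The DNAJC class means did not overlap there either, at 1.57 to 1.60 in old MPP3 and 1.549 to 1.555 in young MPP3. Those of DNAJB did not overlap between old MPP4 (0.895 to 0.934) and old MPP3 (0.872 to 0.893). No test was run on class means. Among single genes, 14.2% of all did not overlap between old and young MPP3, and 16.6% between old MPP4 and old MPP3.

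**Figure D1:**
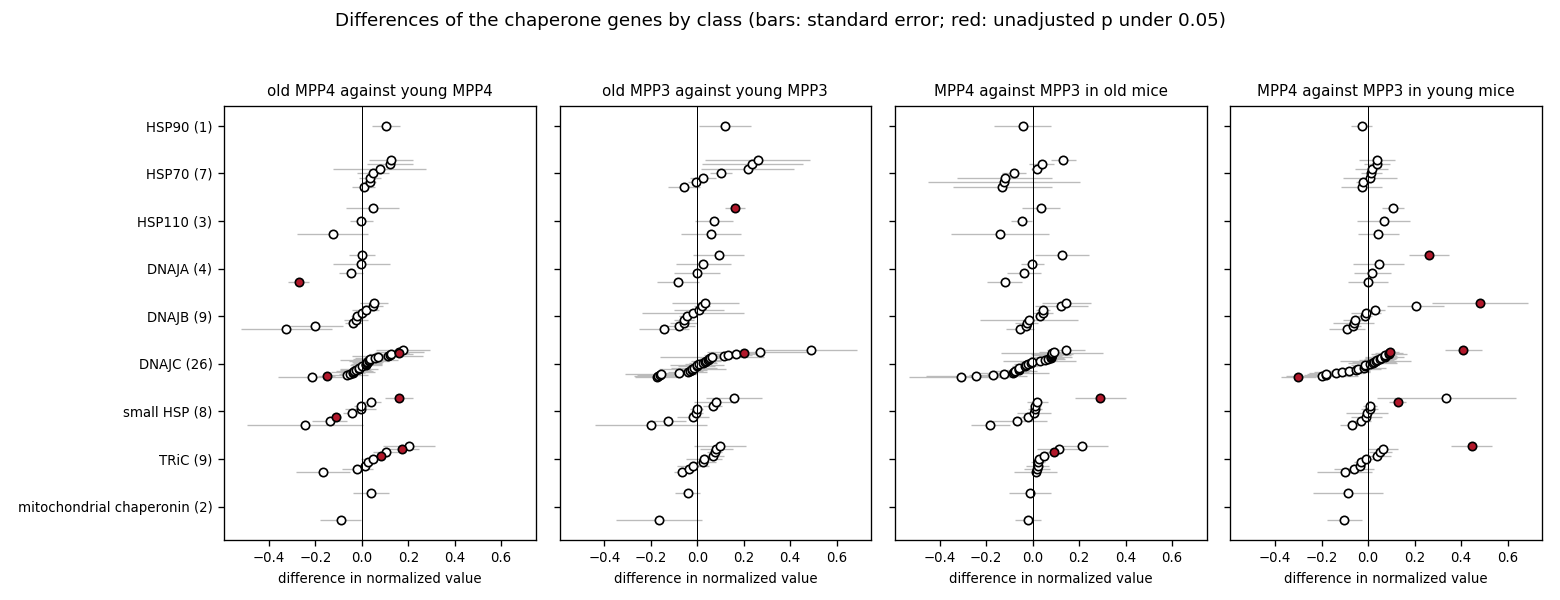
Differences in normalized value of the chaperone genes by class in 4 comparisons, 1 point per gene with its standard error as the bar, filled red where the unadjusted p was under 0.05. Hspg2 is not drawn. No point passed the adjusted threshold, and the 4 panels hold 7, 2, 2 and 7 red points.

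The first question was whether chaperone genes differ with age in MPP4. No member passed the threshold, against a background of 0% of all genes called in old MPP4 against young MPP4, and the smallest adjusted p was 0.0585 over all genes and 0.230 over the members. At an unadjusted p under 0.05, 4 members were higher (5.71% of members, background 4.5%) and 3 were lower (4.29%, background 5.27%) in old MPP4, and a SAM-type statistic also called none. Groups did not overlap for 6 members, a share of 8.57% against 7.29% of all genes. Over all members the median difference was 0.0173, against -0.000171 over all genes, with 40 of 70 higher in old MPP4. The 95% interval of a member's difference reached 0.149 to either side at the median, and 68 of 70 differences were smaller than 0.25.

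Dnaja2, a J-domain cochaperone of cytosolic HSP70, had the smallest p of the members. It had normalized values of 2.43, 2.47 and 2.54 in old MPP4, against 2.82, 2.63, 2.78, 2.78 and 2.75 in young MPP4. All old MPP4 arrays lay below all young MPP4 arrays, and the difference was -0.272 ± 0.0459 (SE; unadjusted p = 0.000482, adjusted p = 0.230). In MPP3 the same gene had 2.43, 2.46 and 2.66 in old arrays and 2.71, 2.45 and 2.32 in young arrays, which overlapped. The difference between its age differences, MPP4 minus MPP3, was -0.299 ± 0.122 (unadjusted p = 0.0313, adjusted p = 0.781). Within array set 1 it was -0.0573, but young MPP3 then holds replicate 1 only, the highest of its 3 values.

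Hspb9, a testis-associated small heat shock protein, had 0.830, 0.855 and 0.849 in old MPP4, against 0.933, 0.933, 0.936, 0.989 and 0.978 in young MPP4. These groups did not overlap either, with a difference of -0.109 ± 0.0208 (adjusted p = 0.298). With array weights in the fit, Dnaja2 and Hspb9 passed the threshold (adjusted p = 0.0370 and 0.0428), 2 of 70 members, while 304 of all 19155 genes passed. Dnajc27, a small GTPase that ends in a J domain, differed by -0.151 ± 0.0364 (adjusted p = 0.343), at a mean of 0.954 ± 0.0620 in old MPP4 and 1.11 ± 0.0446 in young MPP4 (SD, n = 3 and 5). On the higher side stood Dnajc14, a J-domain protein of the ER membrane chosen after its values were seen, with 1.67, 1.73 and 1.69 in old MPP4, against 1.60, 1.46, 1.62, 1.51 and 1.48 in young MPP4. Its groups did not overlap and the difference was 0.161 ± 0.0430 (adjusted p = 0.366). Hspb6, a small heat shock protein of muscle, had a difference of 0.161 ± 0.0597 (adjusted p = 0.472) with overlapping groups, and of 0.0995 without old MPP4 replicate 1.

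Among the TRiC genes 7 of 9 were higher in old MPP4 than in young MPP4, with a class median of 0.0460. Over all genes 49.8% were higher. The largest TRiC difference, 0.203, was that of Cct6a, which split fully by array set as given below. Cct2 and Cct4 also had lower means on set 2, which holds young arrays only. Cct2 averaged 3.56 ± 0.0425 in old MPP4 and 3.48 ± 0.0464 in young MPP4, a difference of 0.0826 ± 0.0328 (adjusted p = 0.489). For Cct4 the values were 2.81, 2.81 and 2.88 in old MPP4, against 2.61, 2.74, 2.46, 2.79 and 2.71 in young MPP4. The difference of 0.173 ± 0.0715 had an adjusted p of 0.501, and neither gene's groups overlapped. Without old MPP4 replicate 3 the unadjusted p of Cct2 was 0.151 and that of Cct4 was 0.128. All 7 HSP70 genes had a positive difference, between 0.00783 and 0.124, and none of these had an unadjusted p under 0.05.

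The same question in MPP3 gave no member past the threshold either, with 0% of all genes called in old MPP3 against young MPP3 and smallest adjusted p values of 0.471 over all genes and 0.511 over the members. At an unadjusted p under 0.05, 2 members were higher (2.86%, background 3.44%) and 0 were lower (0%, background 4.75%) in old MPP3, and the SAM-type statistic called none. With 1 array left out this number of members ran from 1 to 14, the highest without young MPP3 replicate 1. Without that array the young MPP3 arrays are all of set 2 and the old MPP3 arrays all of set 1. Age and array set cannot be told apart there. For 6 members the groups did not overlap, 8.57% against 14.2% of all genes. The median difference was 0.0214 over the members and 0.000183 over all genes, with 38 of 70 members higher in old MPP3. Without both old arrays numbered 3, a choice made after seeing the data, that median was -0.00164.

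Hspa4l, an HSP110 protein first known from testis, had 1.92, 1.85 and 1.83 in old MPP3, against 1.75, 1.74 and 1.63 in young MPP3. The groups were separate and the difference was 0.163 ± 0.0445 (unadjusted p = 0.0133, adjusted p = 0.511). Dnajc11, a J-domain protein of the mitochondrial inner-membrane organizing machinery, had 1.48, 1.58 and 1.71 in old MPP3, against 1.45, 1.42 and 1.30 in young MPP3, again without overlap. Its difference was 0.200 ± 0.0756 (adjusted p = 0.594). Dnajc13, a J-domain protein of endosomes, had the largest difference of the 70 members, 0.488 ± 0.199, at an adjusted p of 0.615. Its values were 2.49, 2.88 and 2.16 in old MPP3, against 1.84, 2.07 and 2.16 in young MPP3. Old MPP3 replicate 3 lay only just above the highest young array. In the HSP70 class 5 of 7 genes were higher in old MPP3, none with an unadjusted p under 0.05 (over all genes 50.1% were higher). Of these Hspa13, a microsomal HSP70 chosen after its values were seen, had 1.73, 1.71 and 1.01 in old MPP3, against 1.01, 1.35 and 1.30 in young MPP3. Its difference was 0.260 ± 0.227 (adjusted p = 0.791), and here old MPP3 replicate 3 was the low array.

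The heat-inducible members were described next, because their values turned on single arrays. Hspa1a, the inducible HSP70, had 0.921, 0.975 and 1.79 in old MPP4, against 1.01, 1.05, 1.34, 1.21 and 1.14 in young MPP4. In MPP3 it had 0.924, 1.35 and 1.78 in old arrays, against 1.06, 1.18 and 1.10 in young arrays. Replicate 3 of each old population was thus the highest of all 14 arrays, 0.434 above the next, while the other 4 old arrays lay within or below the range of the young arrays or, for old MPP3 replicate 2, level with its top. The age difference of Hspa1a was 0.0765 ± 0.199 in MPP4 (adjusted p = 0.931) and 0.238 ± 0.219 in MPP3 (adjusted p = 0.805). Without both old arrays numbered 3 it was -0.205 in MPP4 (adjusted p = 0.765) and 0.0222 in MPP3 (adjusted p = 0.993). Hspa1b, a near-identical neighbour of Hspa1a, has no probe set of its own here, so signal of that copy cannot be told apart from Hspa1a.

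Hsp90aa1, the inducible cytosolic HSP90, had 3.77, 3.73 and 3.99 in old MPP4, against 3.66, 3.78, 3.73, 3.75 and 3.72 in young MPP4. It had 3.81, 3.72 and 4.09 in old MPP3, against 3.86, 3.70 and 3.70 in young MPP3. Again replicate 3 of both old populations stood highest, and the groups overlapped in both populations. Its age difference was 0.104 ± 0.0605 in MPP4 (adjusted p = 0.615) and 0.119 ± 0.111 in MPP3 (adjusted p = 0.805), and without both arrays 0.0234 and 0.00980. Which copy of the sequence the Hsp90aa1 probe set reads is uncertain, as given below.

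Hsph1, the inducible HSP110, had 1.83, 1.45 and 2.18 in old MPP4, against 2.08, 1.91, 2.05, 1.80 and 1.89 in young MPP4. In old MPP3 it had 1.96, 1.76 and 2.16, against 2.07, 1.88 and 1.75 in young MPP3. The old arrays numbered 3 were the highest here too, but old MPP4 replicate 2 was the lowest of all. Its age difference was -0.126 ± 0.154 in MPP4 (adjusted p = 0.828) and 0.0599 ± 0.130 in MPP3 (adjusted p = 0.928). Without both old arrays numbered 3 it was -0.307 in MPP4 (unadjusted p = 0.0392, adjusted p = 0.748) and -0.0404 in MPP3 (adjusted p = 0.972), and without old MPP4 replicate 2 it was 0.0592 in MPP4.

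In all, 5 of 70 members (7.14%) had these 2 arrays as their 2 highest of 14, as did 200 of 19155 genes (1.04%). The other members were Cct7, at 2.31 and 2.22 in old MPP4 and old MPP3 replicate 3 against at most 2.14 elsewhere, and Dnajc21, a ribosome biogenesis factor and named for this pattern, at 2.54 and 2.72 against at most 2.52. Of the cochaperones outside the group, Stip1, which links HSP70 to HSP90, showed the same order with 3.13 and 3.18, against 2.70 to 3.06 on the other 12 arrays. This count was made after the values were seen and carries no test. The mean of 10 genes of handling stress, mostly immediate early genes, was 2.09 and 2.10 on these arrays, within the 1.78 to 2.51 of all arrays. Whether the labels' number 3 marks a shared mouse or day is not given in the sources used here.

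Dnajb1 and Dnaja1 shared the order in part. Dnajb1, the main inducible J-domain protein, had 1.88, 1.86 and 1.90 in old MPP4, against 1.88, 1.87, 2.41, 2.10 and 2.16 in young MPP4. It had 1.71, 1.54 and 1.96 in old MPP3, against 1.92, 1.87 and 1.85 in young MPP3. Replicate 3 was the highest within each old population, but the highest values of all were those of young MPP4 replicates 3, 4 and 5, all of set 2. Dnaja1 averaged 3.09 ± 0.164 in old MPP4 and 3.09 ± 0.194 in young MPP4 (SD, n = 3 and 5), a difference of -0.00264 ± 0.123. Its replicate 3 in old MPP4, at 3.281, was the highest of all 14 arrays by a narrow margin over young MPP4 replicate 5 at 3.28. Replicate 3 of old MPP3, at 3.12, was the highest of its group. For Dnaja1, too, it is uncertain which copy of the sequence the probe set reads. Hspb1, the best known small heat shock protein, stayed between 0.328 and 0.459 on all arrays, with differences under 0.01 in each comparison between groups.

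**Figure D2:**
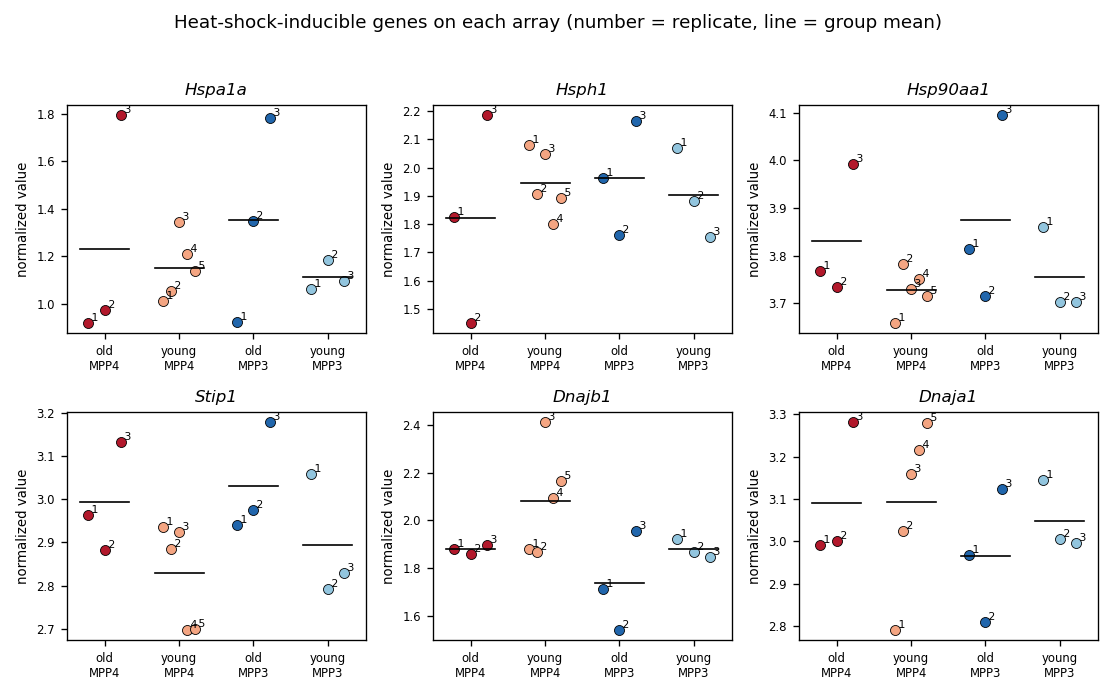
Normalized values of 5 heat-inducible members and of Stip1 on each of 14 arrays, by group, with the replicate number beside each point and the group mean as a line. Replicate 3 of old MPP4 and of old MPP3 are the 2 highest points for Hspa1a, Hsph1, Hsp90aa1 and Stip1, and not for Dnajb1 and Dnaja1. It is uncertain which copy of the sequence the probe sets of Hsp90aa1 and Dnaja1 read.

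The promoters of the members were read for the letters of the heat shock element. RefSeq promoter windows (build GRCm38.p6, 250 bases before to 50 after the start) were matched for 57 of 70 members, not including Hsp90aa1. An element of 3 units was searched as GAANNTTCNNGAA or TTCNNGAANNTTC, which are each other's reverse complement and so cover both strands, and matches may overlap. It was found in 179 of 27025 genes with a window (0.662%) and in 3 of 57 members (5.26%), Hsph1, Hspd1 and Hspe1. Hspd1 and Hspe1 share the same elements between their starts, so they do not count as separate finds. The 2-unit forms GAANNTTC and TTCNNGAA, parts of that element, were in 17% of genes and in 17 of 57 members (29.8%), among them Hspa1a, Dnaja1 and Hspb1. Dnajb1 had a window without a match of either element. The following stretches are shown because they carry the matches of Hspa1a and Hsph1, which shared the order over the arrays, and of the mitochondrial pair, which did not; capitals mark the 3-unit element, or for Hspa1a the 2-unit form.
Hspa1a (chr17:34972157-34972306, minus strand, the 150 bases before the start): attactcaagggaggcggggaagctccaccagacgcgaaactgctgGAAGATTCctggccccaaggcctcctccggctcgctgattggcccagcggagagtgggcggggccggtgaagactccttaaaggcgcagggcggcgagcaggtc
Hsph1 (chr5:149636279-149636308, minus strand, 30 bases after 1 of its starts): gctgcagaTTCTGGAAAGTTCtcctcagta
Hspd1 to Hspe1 (chr1:55087933-55088147, plus strand, the whole stretch between the 2 starts): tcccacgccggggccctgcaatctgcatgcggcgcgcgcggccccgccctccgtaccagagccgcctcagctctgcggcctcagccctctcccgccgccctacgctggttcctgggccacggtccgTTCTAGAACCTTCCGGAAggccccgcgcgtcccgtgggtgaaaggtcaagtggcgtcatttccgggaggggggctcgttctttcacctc

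Hspd1 and Hspe1, which code for the barrel and the lid of the mitochondrial chaperonin, are read in opposite directions from the 215 bases printed above, with 2 overlapping elements in 1 run of capitals. Hspd1 had 3.29, 3.23 and 3.35 in old MPP4, against 3.04, 3.22, 3.30, 3.39 and 3.30 in young MPP4. Hspe1 had 3.64, 3.63 and 3.89 in old MPP4, against 3.71, 3.69, 3.78, 3.92 and 3.95 in young MPP4. Both overlapped between the ages, with differences of 0.0410 ± 0.0771 (Hspd1) and -0.0913 ± 0.0876 (Hspe1). In MPP3 their age differences were -0.0418 ± 0.0532 for Hspd1 and -0.165 ± 0.183 for Hspe1, whose young MPP3 arrays spread over 3.49, 4.05 and 4.14. The probe set numbers of Hspd1, Hspe1, Hsp90aa1 and Dnaja1 lie among those of genes on other chromosomes than their own, as holds for 1.32% of all genes, so it is uncertain which copy of the sequence these 4 probe sets read.

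The second question was how MPP4 and MPP3 differ in chaperones within an age. In young mice, 25 genes passed the threshold (0.131% of all genes), of which 0 were members, and the SAM-type statistic called 8 genes and no member. At an unadjusted p under 0.05, 6 members were higher (8.57%, background 5.48%) and 1 was lower (1.43%, background 5.53%) in MPP4. Groups did not overlap for 3 members, 4.29% against 7.47% of all genes. With the array set as a term in the fit, 271 of all 19155 genes passed. Of the 70 members 3 passed, all higher in young MPP4: Dnajc13, Cct3 and Dnajb4.

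Cct3, a TRiC ring subunit, had 1.72, 1.64, 1.78, 1.98 and 1.99 in young MPP4, against 1.32, 1.39 and 1.43 in young MPP3. No array of young MPP4 reached down to young MPP3, and the difference was 0.445 ± 0.0876 (unadjusted p = 0.00123, adjusted p = 0.142). With the array set as a term it was 0.458 (adjusted p = 0.0338). In old mice Cct3 had 1.56, 1.51 and 1.90 in MPP4, against 1.39, 1.53 and 1.42 in MPP3, a difference of 0.211 ± 0.113 (adjusted p = 0.621) with overlap. The difference between the age differences was -0.234 ± 0.147 (adjusted p = 0.869).

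Dnajc13 had 2.29, 2.44, 2.50, 2.49 and 2.45 in young MPP4, against 1.84, 2.07 and 2.16 in young MPP3. The arrays separated fully by population, with a difference of 0.410 ± 0.0798 (adjusted p = 0.141, and 0.0260 with the array set as a term). In old mice the spread of both populations was wider, at 2.37, 2.86 and 2.56 in MPP4 and 2.49, 2.88 and 2.16 in MPP3. Dnajb4, a heat-inducible DNAJB protein, averaged 2.39 ± 0.329 in young MPP4 and 1.91 ± 0.270 in young MPP3 (SD, n = 5 and 3), a difference of 0.482 ± 0.205 (adjusted p = 0.454, and 0.0274 with the array set as a term).

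The other J-domain genes with a small unadjusted p in young mice were Dnaja2 and Dnajc27, higher in MPP4 by 0.262 ± 0.0860 (adjusted p = 0.330) and 0.0960 ± 0.0355 (adjusted p = 0.386), and Dnajc19, chosen after its values were seen. Dnajc19, which sits on the import motor of the mitochondrial inner membrane, had 2.04, 2.11, 1.88, 1.91 and 1.92 in young MPP4, against 2.13, 2.29 and 2.40 in young MPP3. It was the only member lower in young MPP4 at that level, by -0.300 ± 0.0749 (adjusted p = 0.224), and its groups did not overlap. Hspb3, a small heat shock protein of muscle, was higher by 0.127 ± 0.0383 (adjusted p = 0.290) with overlapping groups.

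**Figure D3:**
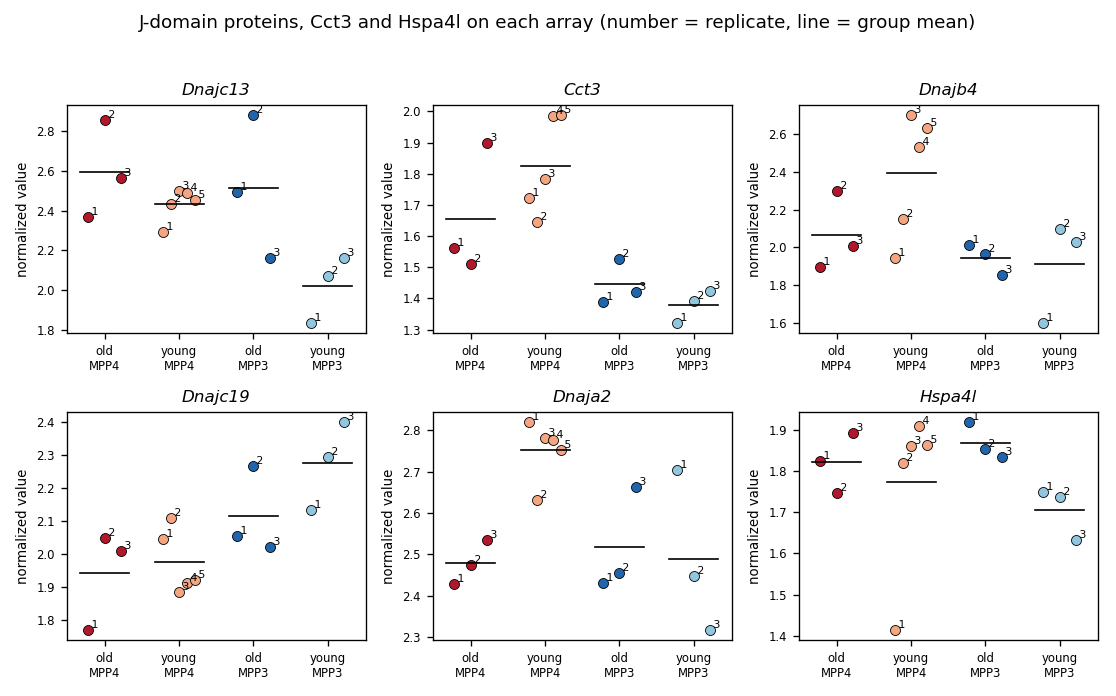
Normalized values of Dnajc13, Cct3, Dnajb4, Dnajc19, Dnaja2 and Hspa4l on each of 14 arrays, by group, with replicate numbers and group means as lines. Cct3 and Dnajc13 in young MPP4 lie wholly above young MPP3, Dnajc19 wholly below, and Dnaja2 in old MPP4 wholly below young MPP4.

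In old mice 0% of all genes passed in MPP4 against MPP3, so 0 members did, with a smallest adjusted p of 0.0886 over all genes and 0.480 over the members. At an unadjusted p under 0.05, 2 members were higher (2.86%, background 6.19%) and 0 were lower (0%, background 3.64%) in old MPP4, and the SAM-type statistic called none. Groups did not overlap for 6 members, 8.57% against 16.6% of all genes. The TRiC genes were all 9 higher in old MPP4, against 48.3% of all genes, with differences between 0.0134 and 0.211 and a class median of 0.0290. They include Cct6b and Cct8l1, with low means of 0.126 and 0.232 over all arrays. The TRiC class means overlapped, at 2.197 to 2.325 in old MPP4 and 2.159 to 2.208 in old MPP3. Of the 9 genes only 1, Cct2, had an unadjusted p under 0.05. Its values of 3.54, 3.53 and 3.61 in old MPP4 lay above the 3.51, 3.45 and 3.44 in old MPP3, with a difference of 0.0919 ± 0.0331 (adjusted p = 0.480). Without the 2 arrays numbered 3 it was 0.0530 (unadjusted p = 0.172). Hspa9, the mitochondrial HSP70, averaged 3.19 ± 0.0761 in old MPP4 and 3.06 ± 0.0668 in old MPP3, a difference of 0.131 ± 0.0539 (adjusted p = 0.526).

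**Figure D4:**
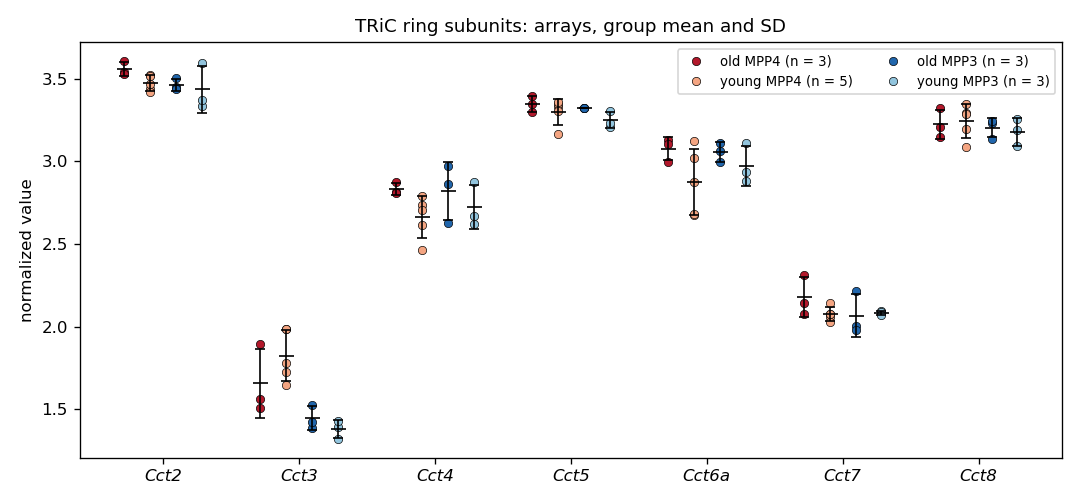
Normalized values of 7 TRiC ring subunits on each array (points), with the group mean and SD (bars), by group. The means of Cct3 are 1.66 and 1.82 in old and young MPP4, against 1.45 and 1.38 in old and young MPP3.

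The age difference in MPP4 minus that in MPP3 passed the threshold for 0% of genes and for 0 members, with a smallest adjusted p of 0.200 over all genes and 0.764 over the members. At an unadjusted p under 0.05 there was 1 member on the positive side (1.43%, background 3.44%), Cct6b, a testis-associated TRiC subunit, and 1 on the negative side (1.43%, background 2.83%), Dnaja2. For Cct6b the estimate was 0.0630 ± 0.0247 (adjusted p = 0.764), at values of 0.0892 to 0.161 over all arrays. Half-widths of the 95% interval had a median of 0.257 over the members.

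Some members differed between the array sets. Hspb2, a small heat shock protein of muscle, had 0.496 to 0.639 on the 5 arrays of set 2, against 0.320 to 0.434 on the 9 arrays of set 1. For Cct6a the order was turned, with 2.68 to 2.93 on set 2 against 2.99 to 3.13 on set 1. These were the members without overlap, 1 in each direction (1.43% each, below the 2.58% of all genes for set 2 above set 1 and the 4.35% for set 2 below). Hspb11, an intraflagellar transport protein despite its symbol, and Dnajb4 had means of 1.59 and 2.40 on set 2 and 0.979 and 1.97 on set 1, with overlap. Set 2 holds young arrays only, and within set 1 young MPP4 holds replicates 1 and 2 only. The age differences in MPP4 of -0.244 (Hspb11) and -0.324 (Dnajb4) were 0.242 and 0.0204 within set 1 (adjusted p = 0.505 and 0.983). The part of the array set in these differences was not tested. In old mice, where all arrays belong to set 1, Hspb11 had 1.09, 1.22 and 1.27 in MPP4, against 0.887, 1.10 and 0.713 in MPP3, a difference of 0.292 ± 0.110 (adjusted p = 0.493).

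**Figure D5:**
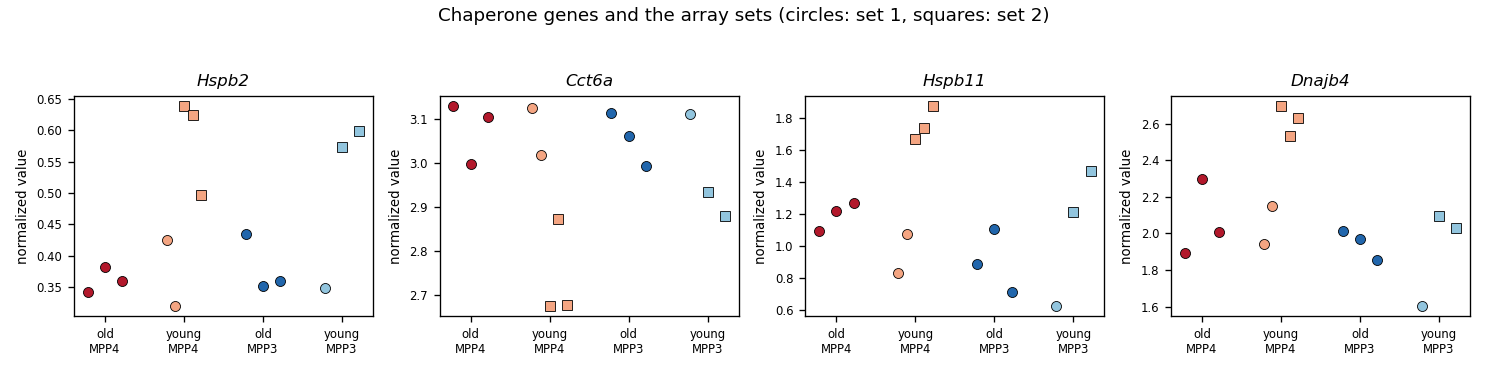
Normalized values of Hspb2, Cct6a, Hspb11 and Dnajb4 on each of 14 arrays, by group, with arrays of set 1 as circles and of set 2 as squares. Squares and circles are fully apart for Hspb2 (squares higher) and Cct6a (squares lower).

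Partners of these chaperones were read in the lists of heat shock factors (5 genes measured, not Hsf1), HSP90 cochaperones (17), HSP70 exchange factors and cochaperones (13) and TRiC partners (9, not Tcp1). None of their genes passed the adjusted threshold in any of the 5 comparisons. At an unadjusted p under 0.05, 0 of these 44 genes were higher (0%, background 4.5%) and 2 lower (4.55%, background 5.27%) in old MPP4 than in young MPP4. In old MPP3 against young MPP3, 4 were higher (9.09%, background 3.44%) and 2 lower (4.55%, background 4.75%). Stip1 differed with age by 0.164 ± 0.0821 in MPP4 (adjusted p = 0.558) and by 0.138 ± 0.0992 in MPP3 (adjusted p = 0.747). Of the 6 ER chaperones left out, 0 passed in old MPP3 against young MPP3, with 5 of 6 higher and a median difference of 0.228, against 0.0214 over the 70 members. Over all genes 50.1% were higher there. In old against young MPP4, 3 of the 6 ER chaperones were higher, with a median difference of 0.0117.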

How the data were processed

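The deposited table held 1 score per probe set and array. Per the study's methods the authors made it with RMA and then mapped the ranks of each array to an exponential distribution, so the deposited score carries rank only. The table held 22115 probe sets, with array medians of 0.662 to 0.675. Probe sets with 1 gene symbol gave 19155 genes. Where a gene had several (76 genes, no member), the one with the highest mean over 14 arrays was taken.

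Each comparison was fitted on its own arrays with limma 3.58.1 in R 4.3.3 (lmFit, eBayes), and the difference between age differences on all 14. Tests were 2-sided. Replicates are independent biological samples per the study's methods, and their number limits the precision. On simulated data of 19155 genes, differences of 1 were recovered in 90% (old against young MPP3), 92% (old against young MPP4), 97% (MPP4 against MPP3, young) and 86% (MPP4 against MPP3, old) of changed genes. Differences of 0.5, which no member exceeded, were recovered in 63%, 79%, 77% and 56% in the same order, with 9, 13, 14 and 11 false calls. Whether these rates hold for the measured arrays was not tested. On the measured arrays the 4 myeloid progenitor genes had a median difference of 1.04 in old against young MPP3. Their smallest adjusted p in limma was 0.615.

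Members, lists and tests were chosen with earlier results of these data known. Named were members past the threshold, the 2 with the highest mean in each class, the member with the largest absolute moderated statistic in each class and comparison, and a set of inducible, mitochondrial and TRiC genes. Dnajc1, Dnajc14, Dnajc19, Dnajc21 and Hspa13 were chosen after their values were seen. Alternatives were a SAM-type statistic, normal scores of ranks, a filter on dim genes, a variance trend with robust estimation, weighting of arrays, the replicate number as a block, a single fit of the 4 groups, array sets, arrays without Xist, every single-symbol probe set, and arrays left out. Leaving out both old arrays numbered 3 was chosen after seeing the data. Figures were drawn with Python 3.11.15.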

Additional observations from a re-analysis of the deposited data

Results flagged for a closer look

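Young MPP4, the group of 5 arrays, had a sample far from the others for 4 of 70 members (5.71%), and chance alone flags about 1 in 20. All 4 were replicate 1. Hspa4l had 1.41 there, against 1.82 to 1.91 on the other 4 arrays, and Cct5 had 3.17, against 3.31 to 3.36. Dnajc1, a J-domain protein of the ER membrane, had 1.71, against 1.89 to 1.96. Hspa2, the HSP70 of testis, was the one on the high side, with 1.27 against 0.893 to 0.984. The same count was not made over all genes, and no cause was tested.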

How the results depend on the processing

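No member passed the threshold in any of the 5 comparisons under any alternative run, except with array weights (2 members in old against young MPP4, 8 in MPP4 against MPP3 in young mice and 2 in the difference between age differences) and with the array set as a term (3 in MPP4 against MPP3 in young mice). The count of all genes passing moved more. In MPP4 against MPP3 in young mice, 25 genes became 8 by the SAM-type statistic, 51 with normal scores, 59 with dim genes left out, 48 with the variance trend, 1808 with array weights, 271 with the array set, 0 without Xist arrays and 8 to 108 with 1 array left out (108 without young MPP3 replicate 1). Where 0 genes had passed, the count moved as well. For old against young MPP3 it became 9 with the single fit of the 4 groups. For old against young MPP4 it became 304 with array weights and 1 with the single fit. For MPP4 against MPP3 in old mice it became 2 with normal scores, 1 with dim genes left out and 27 with the single fit. For the difference between age differences it became 574 with array weights, 2 with the variance trend and 3 without both old arrays numbered 3. With 1 array left out the count was 0 to 15 in old against young MPP4 and 0 to 3 in MPP4 against MPP3 in old mice. For the difference between age differences it was 0 to 10. The number of members at an unadjusted p under 0.05 also moved with 1 array left out. In old against young MPP3, 2 became 1 to 14 (14 without young MPP3 replicate 1). Without that array age and array set cannot be told apart in MPP3. In old against young MPP4, 7 became 5 to 10. In MPP4 against MPP3 in young mice, 7 became 4 to 12 (12 without young MPP4 replicate 1). In MPP4 against MPP3 in old mice, 2 became 0 to 5 (0 without old MPP4 replicate 1). In the difference between age differences, 2 became 0 to 6 (6 without young MPP3 replicate 1).

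Differences of single members changed sign as follows. For old against young MPP3, Hspa1a was -0.0662 and Dnajb4 -0.0391 with array weights, and Dnajb4 was -0.120 without Xist arrays. Within set 1, where young MPP3 holds replicate 1 only, Hsph1 was -0.109 and Hspb11 0.281. Hsph1 was -0.0404 without both old arrays numbered 3. With 1 array left out Hsph1 ran from -0.0404 to 0.161 and Dnajb4 from -0.120 to 0.129. For old against young MPP4, within set 1 (young replicates 1 and 2 only) Dnajb1 was 0.00687, Dnajb4 0.0204 and Hspb11 0.242. Hspa1a was -0.205 without both old arrays numbered 3. With 1 array left out Hspa1a ran from -0.205 to 0.231 and Hsph1 from -0.307 to 0.0592. The cause was not tested.

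The correlations of same-numbered deviations ran from -0.192 to 0.407, the highest between replicate 1 of young MPP4 and of young MPP3. No reference range was drawn for them, so whether replicate numbers pair the samples was not tested. With the replicate block 0 genes passed in MPP4 against MPP3 in young mice, Hspb11 in old against young MPP4 was 0.00321, and no call of a member changed. The SAM-type statistic was not run for the difference between age differences. The comparison of old MPP4 with old MPP3 holds set 1 arrays without Xist signal only, so those settings gave no further value there.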
